A study of Mus musculus with 23 samples.

Results

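The metallothionein genes Mt1, Mt2 and Mt3 and the metal-responsive transcription factor gene Mtf1 were examined in the hippocampal CA3 field of mice transgenic for UBB+1 (UBB+1 tg) and of wild-type mice. The genes were chosen by their symbol, and every probe set annotated to 1 of them alone was used. This gave 4 of the 18192 genes with such a probe set on the Affymetrix arrays MOE430A and MOE430B, and 9 probe sets, 6 on MOE430A and 3 on MOE430B. UBB+1 tg mice carry a transgene for UBB+1, an aberrant ubiquitin with an extended C-terminus that inhibits the proteasome, under the Camk2a promoter, which is active in forebrain neurons. The tg mice were heterozygous animals of 1 transgenic line on a C57BL/6J background, and the wild-type mice were their non-transgenic littermates. All were 18 months old. CA3 was cut with a laser from frozen sections stained with cresyl violet, and its RNA was amplified in 2 rounds before hybridisation. MOE430A arrays were available for 6 UBB+1 tg and 5 wild-type mice and MOE430B arrays for 6 and 6, with at most 1 array of each kind per mouse and 1 wild-type mouse (wt331) on MOE430B only. Mice are named by genotype and animal number, as in tg271 and wt287. Probe set intensities are given on the log2 scale, as multi-array averages (RMA), and differences are UBB+1 tg minus wild type.

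Metallothioneins are small cysteine-rich proteins that bind zinc and copper ions in clusters and buffer them, and that also react with oxidants. Mt1 and Mt2 are expressed in many tissues, in brain above all in astrocytes, and are induced by zinc, glucocorticoids and cytokines. Mt3 is the brain metallothionein, found in astrocytes and in neurons that store zinc in synaptic vesicles, a class to which the mossy fibre terminals of CA3 belong. Mtf1 is a zinc-finger transcription factor that senses free zinc and binds metal-responsive elements, short motifs in the promoters of Mt1, Mt2 and the zinc exporter gene Slc30a1.

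Mt3, Mt2 and Mt1 lie in this order on chromosome 8 within 27.7 kb and are read from the same strand. In RefSeq (GRCm38.p6) Mt3 is at chr8:94152607-94154148, Mt2 at chr8:94172618-94173567 and Mt1 at chr8:94178883-94180327. Mtf1 is at chr4:124802549-124849800. The genomic spans of the metallothionein genes, 950 to 1542 bases, belong to the shortest of the 18144 measured genes with a position, at percentiles 1.23 (Mt2), 2.88 (Mt1) and 3.31 (Mt3), whereas Mtf1 with 47252 bases is at percentile 73.7. The 250 bases before the annotated transcription start of each metallothionein gene are printed here to show matches to metal-responsive elements. Whether these matches bear on the correlations between the genes was not tested. Capitals mark matches to the core of the metal-responsive element, searched as TGCACNC and TGCGCNC on both strands, and all 3 stretches read 5′ to 3′ on the plus strand.
Mt1, chr8:94178839-94179088: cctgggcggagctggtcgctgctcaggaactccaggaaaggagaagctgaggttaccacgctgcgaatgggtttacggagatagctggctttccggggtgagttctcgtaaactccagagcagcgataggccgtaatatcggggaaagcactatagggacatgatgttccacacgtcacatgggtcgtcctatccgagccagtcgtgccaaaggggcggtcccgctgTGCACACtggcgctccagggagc
Mt2, chr8:94172368-94172617: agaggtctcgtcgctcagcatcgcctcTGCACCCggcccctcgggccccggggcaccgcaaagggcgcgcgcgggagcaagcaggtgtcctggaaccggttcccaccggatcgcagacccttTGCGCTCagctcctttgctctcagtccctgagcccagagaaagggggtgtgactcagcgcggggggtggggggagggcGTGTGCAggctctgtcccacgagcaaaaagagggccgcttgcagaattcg
Mt3, chr8:94152357-94152606: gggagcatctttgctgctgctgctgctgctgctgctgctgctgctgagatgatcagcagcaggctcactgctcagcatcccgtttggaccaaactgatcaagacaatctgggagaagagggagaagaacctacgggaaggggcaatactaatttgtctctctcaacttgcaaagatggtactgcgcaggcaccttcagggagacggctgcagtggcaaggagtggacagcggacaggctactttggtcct
Mt2 had 3 matches, at 223, 128 and 50 bases before the start, the last of them on the minus strand, and 1.26% of all 32851 promoters had as many or more. Mt1 had 1 match, 23 bases before the start, and 21.4% of promoters had at least 1. Its RefSeq span begins upstream of the start used here, since it takes in a further transcript. No match was found in these 250 bases of Mt3 or in the corresponding stretch of Mtf1. With the 50 bases after the start added, the counts were 3 for Mt1 (1.97% of windows had as many or more), 4 for Mt2 (0.517%), 1 for Mt3 (25.7%) and 0 for Mtf1, so that the count of Mt1 depends on the window. These are matches of letters and not measured binding sites.

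As a check of the groups, the probe set left out of all tests, which reads the transcribed part of the transgene's promoter, had intensities of 8.45 to 9.34 in the 6 UBB+1 tg mice and 6.41 to 6.85 in the 5 wild-type mice. At a false discovery rate of 10%, limma called no other probe set, with 0 of 22625 (0%) on MOE430A and 0 of 22511 (0%) on MOE430B, and 788 (3.48%) and 687 (3.05%) were below an unadjusted p of 0.05. The 4 genes had 0 of 9 probe sets at either threshold. The arrays fell into 3 sets by their overall similarity, here called array sets. They also differed in the log2 intensity of the 3′ minus the 5′ control probe sets, averaged over Gapdh and Actb. It is a measure of how far the labelled RNA reaches towards the 5′ end, where a larger difference means shorter RNA. On MOE430A this 3′-5′ difference was 2.65 to 3.43 in the low array set (mouse tg271 and mice wt287 and wt290), 4.44 to 4.62 in the middle set (mice tg273, tg274, tg276 and tg277 and mice wt291 and wt321) and 6.05 to 6.10 in the high set (mouse tg270 and mouse wt289). Each array set held both genotypes, and each genotype difference of the 4 genes was also fitted with array sets as blocks. Markers of CA3 pyramidal cells were measured with mean intensities in UBB+1 tg mice and in wild-type mice of 9.94 and 9.49 for Nectin3, 8.90 and 8.48 for Iyd and 10.87 and 10.97 for Bok. Coch was dim, at 4.73 and 4.65. Of 9 such markers, 7 were higher and 2 lower in UBB+1 tg mice, and 0 passed the false discovery rate. Over the 7 on MOE430A the median Pearson r to Mt3 between mice was -0.33, with values from -0.90 for Nectin3 to 0.69 for Spock1.

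None of the metallothionein genes differed between the genotypes beyond the spread between mice. Mt1, Mt2 and Mt3 each had a lower mean in UBB+1 tg mice, by 0.36 to 0.70 on the log2 scale, with standard errors of nearly the same size or larger. On MOE430A, 48.3% of all probe sets had a lower mean in UBB+1 tg mice. The genotypes overlapped for all 9 probe sets of the 4 genes, and 53 of 22625 (0.234%) probe sets on MOE430A and 32 of 22511 (0.142%) on MOE430B showed no overlap.

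Mt3 had the widest spread of the 4 genes. Its intensity had a lowest value of 8.88, a median of 9.996 and a highest value of 12.58 in the 6 UBB+1 tg mice, against 12.26, 11.98, 12.58, 9.51 and 9.49 in mice wt287, wt289, wt290, wt291 and wt321. In both genotypes, the mice of the low and the high array set were at the top and those of the middle set at the bottom, with mouse tg273 (10.72) between them. The means were 10.46 ± 1.63 in UBB+1 tg mice and 11.16 ± 1.53 in wild-type mice (SD, n = 6 and 5). The difference was -0.70 (standard error 0.86, 95% confidence interval -2.59 to 1.19, adjusted p = 0.984 in limma), and the exact permutation test gave p = 0.420. In the fit with array sets as blocks the sign turned, to 0.08 (limma adjusted p = 0.961), and within the middle set alone the means of 4 UBB+1 tg and 2 wild-type mice were 9.50 and 9.50.

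Mt1 showed the same split between array sets, with another order of mice within them. Its bright probe set had a lowest value of 8.09, a median of 9.57 and a highest value of 11.34 in UBB+1 tg mice, against 11.17, 11.03, 10.87, 9.48 and 9.22 in mice wt287, wt289, wt290, wt291 and wt321. mouse tg277 was the lowest of all, and 4 of 6 UBB+1 tg mice were below the wild-type mean. The means were 9.78 ± 1.29 in UBB+1 tg mice and 10.35 ± 0.93 in wild-type mice (SD, n = 6 and 5), with a difference of -0.57 (standard error 0.62, 95% confidence interval -1.94 to 0.79, limma adjusted p = 0.984, exact permutation p = 0.418). The difference was -0.06 with array sets as blocks. This probe set has a name ending in _s_at, which Affymetrix gives to probe sets that can match more than 1 transcript, and Mt1 and Mt2 are close paralogs, so that cross-hybridisation between them was not tested and their values are uncertain to that extent. The second probe set of Mt1 was dim, with 6.09 ± 0.09 in UBB+1 tg mice and 6.15 ± 0.17 in wild-type mice (SD, n = 6 and 5). It spanned 0.43 over all mice, where the bright probe set spanned 3.24. Pearson r between the bright and the dim probe set was 0.38 over 11 mice.

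Mt2 had the smallest spread of the metallothionein genes. Its intensity had a lowest value of 8.71, a median of 9.28 and a highest value of 10.33 in UBB+1 tg mice, against 10.29, 10.18, 10.40, 9.30 and 9.01 in mice wt287, wt289, wt290, wt291 and wt321. Again the mice of the low and the high array set were above all those of the middle set in either genotype. The means were 9.47 ± 0.67 in UBB+1 tg mice and 9.84 ± 0.64 in wild-type mice (SD, n = 6 and 5), and the difference of -0.36 had a standard error of 0.36 (95% confidence interval -1.15 to 0.42, limma adjusted p = 0.984, exact permutation p = 0.361). It was -0.04 with array sets as blocks.

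Mtf1, which encodes the metal sensor, was measured by 5 probe sets, and their differences between -0.05 and 0.07 were each smaller than their standard errors. The brightest had a lowest value of 7.47, a median of 7.92 and a highest value of 8.68 in UBB+1 tg mice, against 7.67, 8.55, 7.83, 7.89 and 7.61 in mice wt287, wt289, wt290, wt291 and wt321. Here the high array set was at the top in both genotypes, and the low set overlapped the middle set. The means were 7.98 ± 0.45 in UBB+1 tg mice and 7.91 ± 0.38 in wild-type mice (SD, n = 6 and 5), with a difference of 0.07 (standard error 0.23, 95% confidence interval -0.44 to 0.58, limma adjusted p = 0.988, exact permutation p = 0.781). The sign of this small difference was not stable to leaving out mouse tg270 (-0.07) or mouse wt321 (-0.01). The other probe set on MOE430A differed by 0.02 and the 3 on MOE430B by -0.05, 0.06 and 0.02, with exact permutation p of 0.656 to 0.903. The probe sets of Mtf1 did not follow each other closely, with Pearson r to the brightest of 0.21, 0.67, -0.28 and -0.03 over 11 mice.

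**Figure D1:**
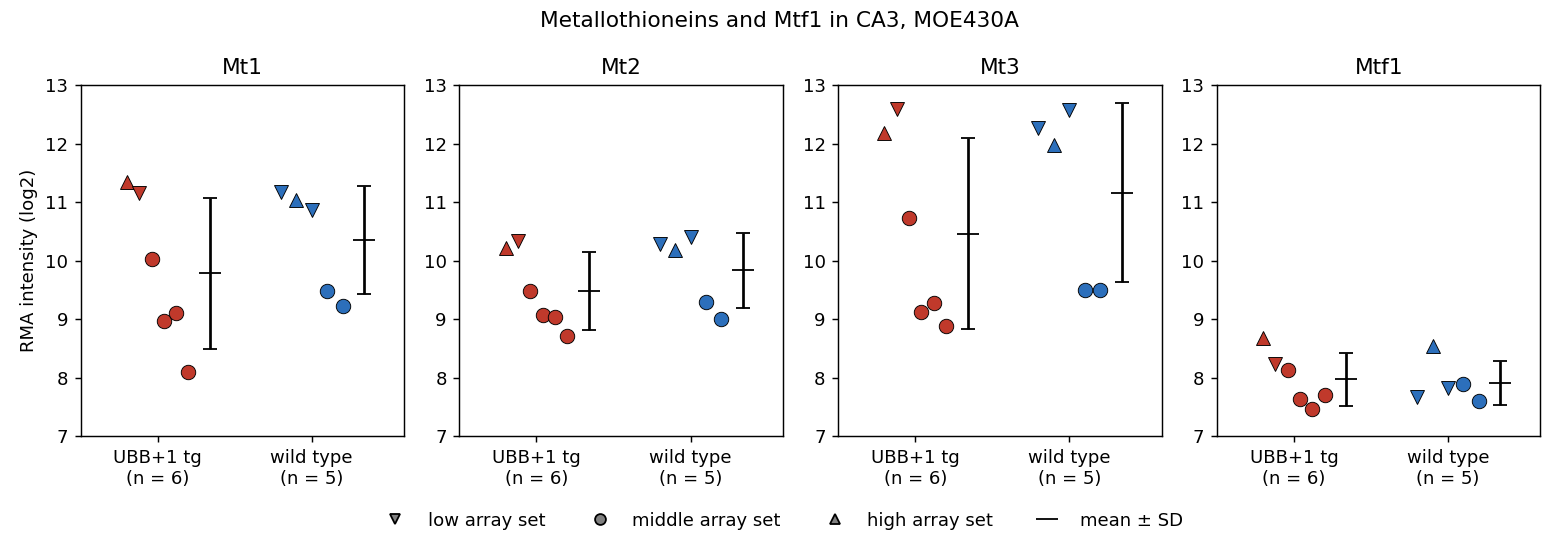
RMA intensities (log2) of the brightest probe set of Mt1, Mt2, Mt3 and Mtf1 in each mouse on MOE430A, with 6 UBB+1 tg mice to the left of 5 wild-type mice, symbols for the array set and bars for the mean ± SD. In both genotypes Mt1, Mt2 and Mt3 are high in the low and high array sets (Mt3 between 11.98 and 12.58) and low in the middle set (Mt3 between 8.88 and 10.72).

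**Figure D2:**
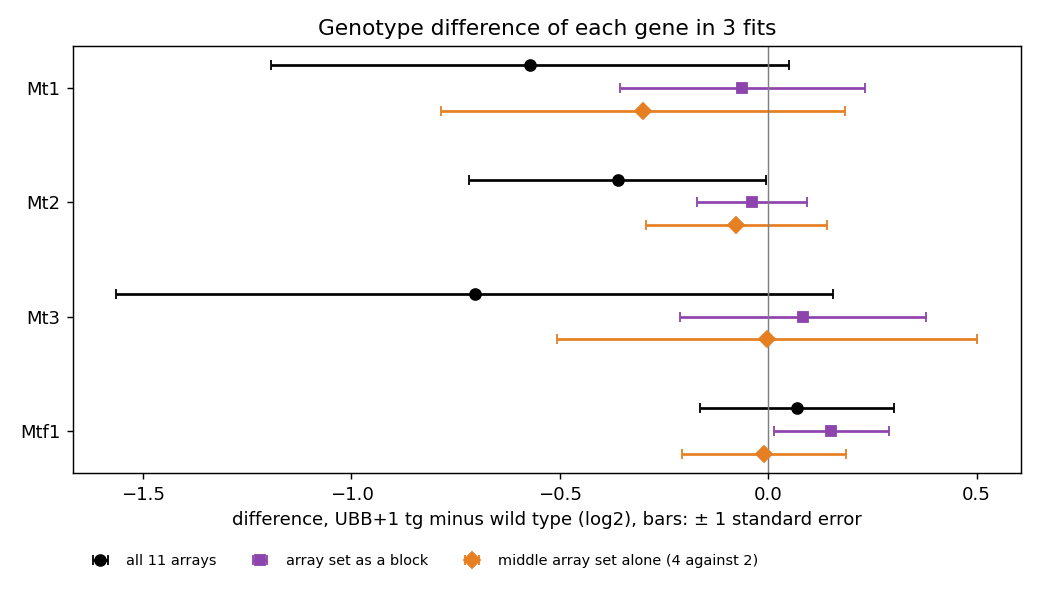
UBB+1 tg minus wild-type difference (log2, horizontal axis) for each gene, with bars of 1 standard error, over all 11 arrays, with array sets as blocks and in the middle array set alone (4 against 2 mice). The differences of -0.57 (Mt1), -0.36 (Mt2) and -0.70 (Mt3) over all arrays are -0.06, -0.04 and 0.08 with the block.

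The spread of the metallothionein genes between mice, by contrast, was among the widest on the array. Mt3 differed 13.1-fold between the highest and the lowest mouse, Mt1 9.47-fold and Mt2 3.22-fold, against 2.31-fold for Mtf1. By its SD over the 11 mice, Mt3 (1.55 on the log2 scale) ranked 16 of 22625 probe sets, Mt1 (1.13) 148, Mt2 (0.65) 1121 and Mtf1 (0.40) 4409, and the median SD of all probe sets was 0.22. These are the brightest probe sets, and the dim second probe set of Mt1 (0.13) ranked 18299. A range above 3 log2 units, which Mt1 and Mt3 had, was seen for 214 probe sets (0.946%). With the SD taken within genotypes, the ranks were 15 for Mt3, 153 for Mt1, 1095 for Mt2 and 3962 for Mtf1.

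**Figure D3:**
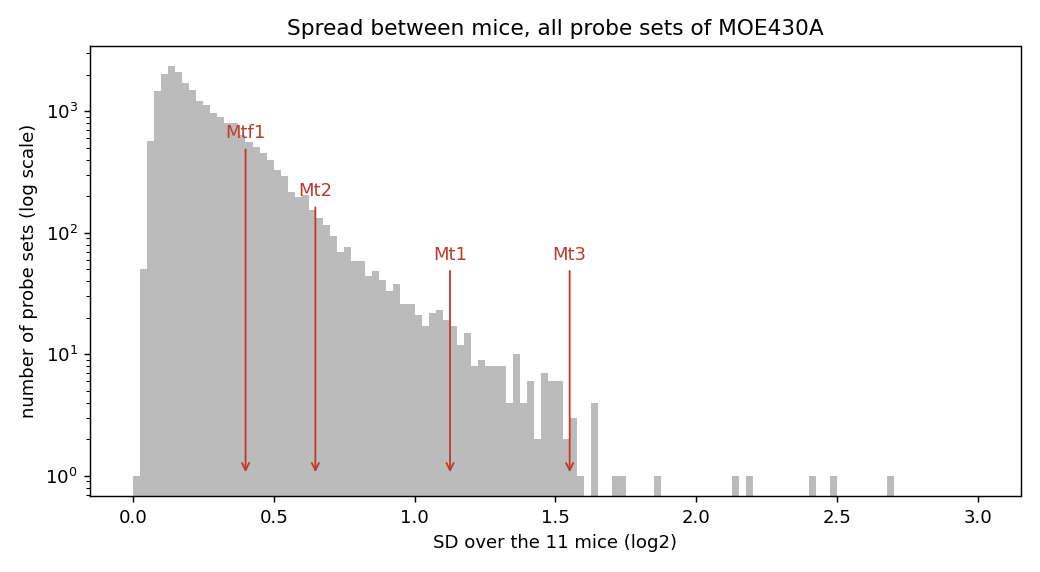
Distribution of the SD over the 11 mice (log2, horizontal axis) for all 22625 probe sets of MOE430A, with the number of probe sets on a log scale and arrows at the brightest probe set of each gene. Mt3 (1.55) and Mt1 (1.13) lie far in the upper tail, Mt2 (0.65) and Mtf1 (0.40) nearer to the bulk.

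Most of this spread lay between the array sets. The share of variance between array sets was 90.9% for Mt3, 91.4% for Mt2 and 83.0% for Mt1, against a median of 39.6% over all probe sets, and 71.1% for Mtf1. Genotype accounted for 5.63%, 8.49% and 7.03% of the variance of Mt3, Mt2 and Mt1. In the low array set, Mt3 was on average 7.86-fold, Mt1 3.77-fold and Mt2 2.36-fold above the middle set. In the high set, at the other end of the 3′-5′ difference, they were 6.00-fold, 4.09-fold and 2.14-fold above the middle set. The metallothionein genes thus did not follow the 3′-5′ difference across the sets in 1 direction. Since the sets were formed from the same arrays, these values are a description and no test.

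Within the middle array set, where the 3′-5′ difference varied by less, the metallothionein genes still differed between mice, Mt3 from 8.88 (mouse tg277) up to 10.72 (mouse tg273). There, a higher metallothionein level went with a smaller 3′-5′ difference, with Pearson r of -0.91 for Mt1 (exact permutation p = 0.0236, n = 6), -0.85 for Mt2 (p = 0.0403) and -0.96 for Mt3 (p = 0.00833). Spearman's rho was -0.77, -0.54 and -0.77 (exact permutation p of 0.103, 0.297 and 0.103). None passed the Benjamini-Hochberg adjustment over the 22 relations computed, with adjusted p of 0.141, 0.148 and 0.122 for Pearson r in the exact permutation test. The part of RNA length in the spread of these genes was not tested further.

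The 3 metallothionein genes had high correlations from mouse to mouse, which passed the adjustment only in part once the split between array sets was removed. Within the middle array set, the only set with at least 6 mice, Pearson r was 0.96 for Mt1 and Mt2 (exact permutation p = 0.0111), 0.88 for Mt1 and Mt3 (p = 0.0319) and 0.87 for Mt2 and Mt3 (p = 0.0264), with adjusted p of 0.122 to 0.141 over 22 relations and Spearman's rho of 0.77, 1.00 and 0.77 (exact permutation p of 0.103, 0.00278 and 0.103, adjusted p of 0.452, 0.0611 and 0.452). Without mouse tg273, the highest of this set, r was 0.93, 0.93 and 0.80 over 5 mice. As deviations from the mean of the array set over all 11 mice, r was 0.92, 0.84 and 0.86, with permutation adjusted p of 0.0328, 0.0576 and 0.0328. By rank none of these passed, with Spearman's rho of 0.57, 0.59 and 0.80 and permutation adjusted p of 0.309, 0.309 and 0.101. Deviations within a set are tied to each other by its mean, and those of the metallothionein genes were larger in the middle set. They were nevertheless permuted freely across sets, so that the p-values for deviations, here and for Mtf1, can be too small. Over all 11 mice without regard to the sets, r was 0.98, 0.97 and 0.99. These values rest on the split between the sets and are given as a measure of likeness only. In all of these correlations Mt1 stands for its bright probe set alone, which may also match Mt2. The r of its dim probe set to Mt2 and Mt3 is not given here.

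Mtf1 followed the metallothionein genes less closely. Over all mice its r was 0.66 to Mt1, 0.60 to Mt2 and 0.62 to Mt3, and as deviations from the mean of the array set 0.49, 0.57 and 0.69 (permutation adjusted p of 0.374, 0.310 and 0.0658). In the middle set r was 0.59, 0.71 and 0.79 (exact permutation p of 0.210, 0.106 and 0.0819), and without mouse tg273 it was 0.09, 0.33 and 0.15 over 5 mice, so that it rested on this mouse. The next brightest probe set of Mtf1, on MOE430B, had r of 0.62, 0.65 and 0.61 to Mt1, Mt2 and Mt3 over 11 mice, and the dimmest had 0.22, 0.23 and 0.25. The third on MOE430B had r of -0.29, -0.22 and -0.25. The r of the remaining Mtf1 probe set, on MOE430A, to the metallothionein genes is not given here.

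**Figure D4:**
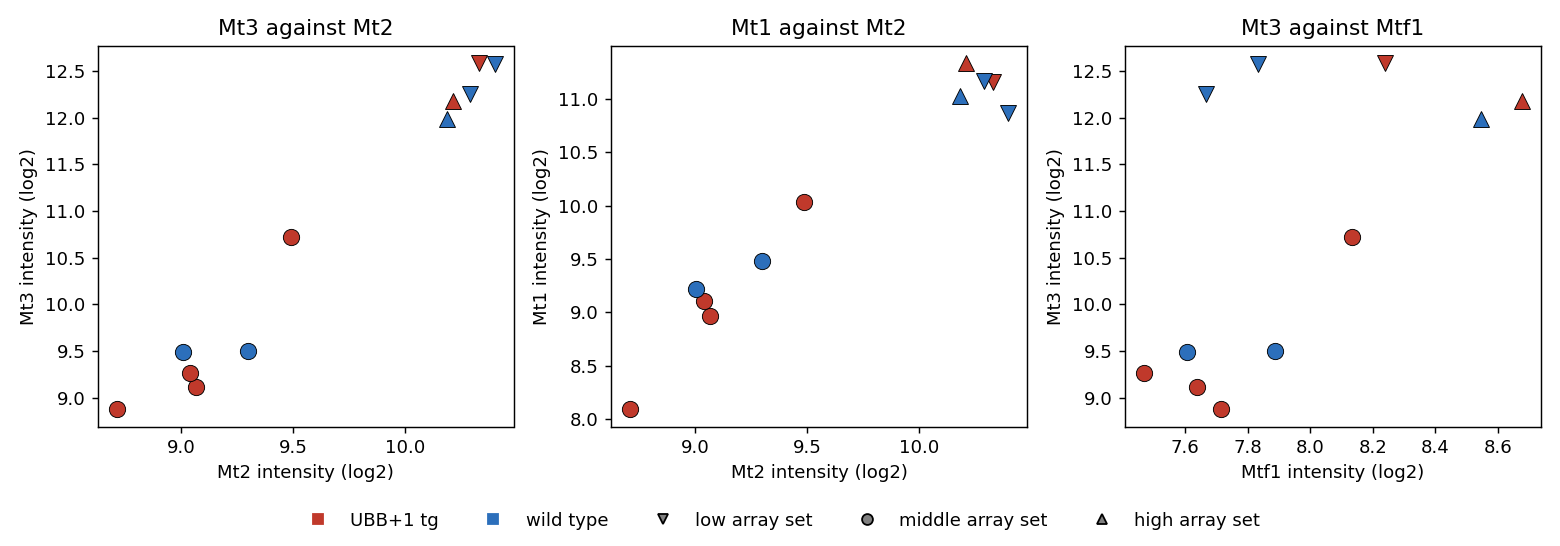
Intensities (log2) of Mt3 against Mt2, Mt1 against Mt2 and Mt3 against Mtf1 in the 11 mice of MOE430A, with UBB+1 tg mice in red, wild-type mice in blue and symbols for the array set. The 5 mice of the low and high sets form a group apart for the metallothionein genes, and the 6 mice of the middle set lie along a rising line (r = 0.96 for Mt1 and Mt2 within that set).

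Ranked by r over the 11 mice, Mt2 was the 3rd and Mt1 the 65th closest of 22623 probe sets to Mt3, and Mtf1 the 2957th. Among probe sets above the median intensity that name 1 gene, the 5 closest to Mt3 were Tomm7 (r = 0.99), a subunit of the mitochondrial import pore, Elob (0.99), the elongin B subunit of ubiquitin ligases, Mt2 (0.99), Atp5e (0.99), a subunit of ATP synthase, and Kifc2 (0.99), a kinesin. For Mt2 they were Cox8a of cytochrome c oxidase (0.99), Elob (0.99), Ost4 of the oligosaccharyltransferase (0.99), Mt3 (0.99) and Atp5mpl of ATP synthase (0.99). The genes closest to Mt1 were Trmt112 (0.99), a partner of methyltransferases, Rpl35 (0.98), a ribosomal protein, Atp5mpl (0.98), Cox5b of cytochrome c oxidase (0.98) and Cox17 (0.98), the copper chaperone of that enzyme. Those of Mtf1 were others, the non-coding RNA gene Snhg11 (0.98), Dennd1b (0.98), the deubiquitinating enzyme gene Usp48 (0.97), Slc44a2 (0.96) and Sdhd (0.95), a subunit of succinate dehydrogenase.

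Subunits of the mitochondrial and ribosomal machinery were frequent among the probe sets most like the metallothioneins. Of the 100 probe sets most like Mt1, Mt2 and Mt3, 28, 30 and 29 belonged to subunits of the respiratory chain and ATP synthase, which made up 1.43% of the 10367 ranked, and 15, 13 and 10 to cytosolic ribosomal proteins, which made up 0.830%. Of the 100 most like Mtf1, 3 and 0 did. The median genomic span over the 100 probe sets, some of which share a gene, was 5.34 kb for Mt1, 4.08 kb for Mt2 and 4.30 kb for Mt3, against 22.2 kb for all ranked probe sets, and 21.9 kb for Mtf1. The lists of Mt1, Mt2 and Mt3 had 53 probe sets in common and those of Mt1 and Mtf1 0. All points share libraries and array sets, and what these genes have in common besides was not tested.

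**Figure D5:**
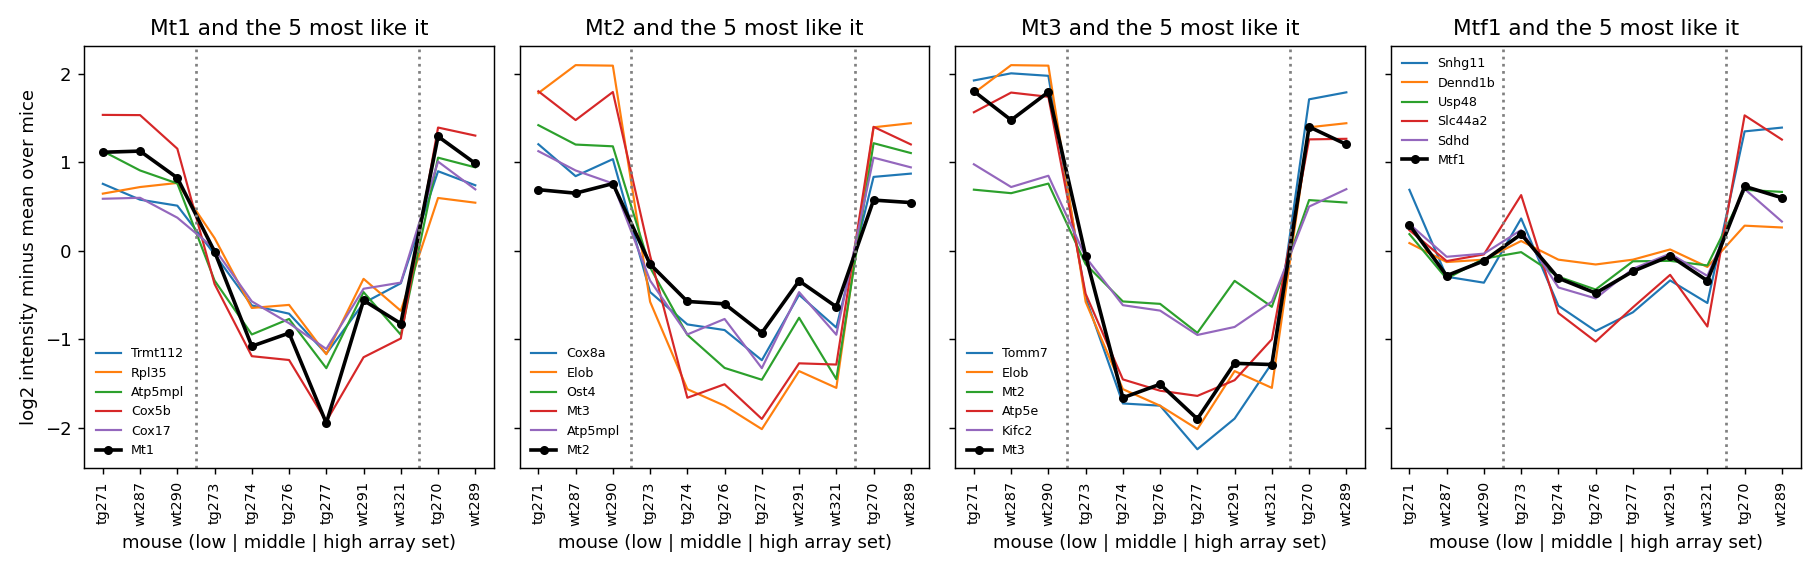
Intensities of each gene (black) and of the 5 probe sets most like it (coloured) in the 11 mice of MOE430A, as log2 differences from the mean over mice, with mice ordered by array set and dotted lines between the sets. The genes most like Mt1, Mt2 and Mt3 are low in the middle set and are high in the other sets, and those most like Mtf1 are high mainly in the high set.

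The neighbours of the metallothionein genes on chromosome 8 followed them less closely than they followed each other. Upstream of Mt3, r to Mt3 was 0.18 for Nudt21, a cleavage factor of mRNA 3′ end formation, and 0.43 for Bbs2, a protein of cilia. Mt4, the metallothionein of squamous epithelia, had an intensity of 5.03 ± 0.11 in UBB+1 tg mice and 5.13 ± 0.11 in wild-type mice (SD, n = 6 and 5) and spanned 0.34, and its r to Mt3 was 0.55. Downstream of Mt1, r to Mt3 was -0.72 for the nucleoporin gene Nup93 and 0.22 for the kidney cotransporter gene Slc12a3. The mean intensities of Bbs2 (5.42), Mt4 (5.08) and Slc12a3 (6.14) were below the median of all probe sets on MOE430A (6.36). Their r is less certain for that reason.

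Among genes of zinc handling, 0 of 10 Slc30 genes, which move zinc out of the cytosol, and 0 of 14 Slc39 genes, which move it in, passed the false discovery rate. Of the Slc30 genes 6 were higher and 4 lower in UBB+1 tg mice (median difference 0.08), of the Slc39 genes 8 and 6 (median 0.05), and the median over all 18192 genes was 0.00. Slc30a1 and Slc39a14 had an unadjusted p below 0.05. Slc30a1, the zinc exporter of the plasma membrane and a known Mtf1 target, was 6.28 ± 0.10 in UBB+1 tg mice and 6.06 ± 0.14 in wild-type mice (SD, n = 6 and 5). The difference was 0.21 (standard error 0.08, limma adjusted p = 0.984). Both means were below the median of all probe sets on MOE430A (6.36), so that this difference is less certain. Slc39a14, an importer of zinc and iron, was 7.88 ± 0.21 in UBB+1 tg mice and 7.47 ± 0.21 in wild-type mice (SD, n = 6 and 5), a difference of 0.41 (standard error 0.13, limma adjusted p = 0.984). Slc30a3, which loads zinc into synaptic vesicles of mossy fibres, was 9.27 ± 0.17 in UBB+1 tg mice and 9.41 ± 0.17 in wild-type mice (SD, n = 6 and 5). The median r of the 8 Slc30 genes on MOE430A to Mt3 was -0.39, and that of the 10 Slc39 genes there was -0.06. None of these 18 genes had an r above 0.9 to a metallothionein. Such an r was rare among all 12392 genes on MOE430A, with 186 to Mt1, 229 to Mt2 and 201 to Mt3. Its absence therefore does not set the 18 genes apart. The other 6 genes of these families are on MOE430B and were not correlated.

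Of 6 Mtf1 targets other than metallothioneins, 0 passed the false discovery rate, 4 were higher and 2 lower in UBB+1 tg mice. Slc30a1 and Slc39a10, both higher, are among these targets and were already counted with the zinc transporters. Gclc, the catalytic subunit of the enzyme that starts glutathione synthesis, differed by 0.37 (standard error 0.15, unadjusted p = 0.0341 and adjusted p = 0.984 in limma), Csrp1 by -0.38 (standard error 0.25) and Ndrg1 by 0.22 (standard error 0.29). Over the 5 of these targets on MOE430A, the median r to Mt1, Mt2 and Mt3 was -0.35, -0.21 and -0.24. Among 11 genes of copper handling, 0 passed and 9 were lower in UBB+1 tg mice (median difference -0.19), as were 9084 of all 18192 genes. The r of the copper genes to Mt3 between mice had a median of 0.38 over the 10 on MOE430A. The chaperones Atox1 (0.98) and Cox17 (0.94) had the highest r to Mt3, the chaperone Ccs had 0.19 and the copper importer Slc31a1 -0.56. Cox17 differed by -0.32 (standard error 0.39) and Sco2, which serves copper delivery to cytochrome c oxidase, by -0.40 (standard error 0.26) between the genotypes.

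The inducers of Mt1 and Mt2 were followed through their other target genes. Of 12 glucocorticoid-responsive genes, 0 passed the false discovery rate (median difference -0.04), with -0.21 (standard error 0.11) for Zbtb16, -0.25 (0.16) for Map3k6 and 0.15 (0.14) for the clock gene Per1. Of 10 genes of the cytokine and Stat3 response, 0 passed (median 0.01), with -0.39 (standard error 0.18) for Cebpb and 0.12 (0.08) for the oncostatin M receptor gene Osmr. Of 13 measured genes of the oxidative stress response, 0 passed (median -0.06), with -0.42 (standard error 0.26) for the superoxide dismutase gene Sod1, and r to Mt3 between mice was -0.92 for Gclm, the partner subunit of Gclc, and 0.86 for Sod1, with a median of -0.04 over the list.

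Astrocytes are the main source of Mt1 and Mt2 in brain, and RNA per cell and number of cells cannot be told apart in tissue samples such as these. Of 19 measured astrocyte markers, 0 passed the false discovery rate, and 6 were higher and 13 lower in UBB+1 tg mice (median difference -0.07). Sox9, an astrocyte transcription factor, differed by -0.26 (standard error 0.10, unadjusted p = 0.0232 in limma). Its means of 5.38 in UBB+1 tg mice and 5.65 in wild-type mice were below the MOE430A median of 6.36, so that this difference is less certain. Aqp4, the astrocyte water channel, differed by 0.42 (standard error 0.37) and Slc1a2, the glutamate transporter, by 0.12 (standard error 0.15). Aldoc differed by -0.04 (standard error 0.20) and Gfap by -0.04 (standard error 0.13). The markers did not vary as 1 group with the metallothioneins, since r to Mt3 over 11 mice was 0.93 for S100b, 0.90 for Atp1b2 and 0.84 for Gfap, but -0.71 for Aldoc, -0.58 for Slc1a2 and -0.45 for Aqp4, with a median of -0.32. Their mean had an r of -0.19, -0.24 and -0.31 to Mt1, Mt2 and Mt3 over all mice, and of 0.55, 0.58 and 0.21 in the middle array set (exact permutation p of 0.228, 0.210 and 0.615, n = 6).

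Markers of other cells in the cut tissue likewise gave 0 genes past the false discovery rate. Of 13 neuron markers, 7 were higher and 6 lower in UBB+1 tg mice (median difference 0.05). Nrgn, which encodes neurogranin, differed by -0.34 (standard error 0.13, unadjusted p = 0.0256 in limma) and Map2 by -0.18 (standard error 0.07, unadjusted p = 0.0321 in limma). The Map2 probe set was dim, with means of 4.94 in UBB+1 tg mice and 5.12 in wild-type mice. These are below the median of all probe sets on MOE430A (6.36), so that the difference of Map2 is less certain. Tubb3 differed by -1.02 (standard error 0.56) and Slc17a7 by -0.52 (standard error 0.32). Among those higher in UBB+1 tg mice, Snap25 differed by 0.37 (standard error 0.24) and Stmn2 by 0.40 (standard error 0.41). The r of the neuron markers to Mt3 ranged widely, with -0.96 for Stmn2 and 0.83 for Tubb3 and a median of 0.11. All 10 measured oligodendrocyte markers had a higher mean in UBB+1 tg mice (median difference 0.13), as had 9108 of all 18192 genes. The differences ran from 0.58 (standard error 0.30) for Mal and 0.21 (0.11) for Mbp down to 0.007 (0.19) for Opalin and 0.005 (0.12) for Mag. The median r of these markers to Mt3 was -0.34. Of 9 measured markers of choroid plexus and ependyma, 5 were higher and 4 lower in UBB+1 tg mice (median difference 0.02). Over the 6 on MOE430A the median r to Mt3 was 0.34. Ttr, the marker of choroid plexus, was between 7.21 and 8.68 and differed by -0.14 (standard error 0.28). Its r to Mt3 of 0.71 was the highest of these 6. The part of these cells in the spread of the metallothioneins was not tested.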

How the data were processed

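The authors deposited RMA intensities, in which the background is corrected, arrays are brought to the same quantiles and probes are summarised to probe sets. The arrays have 1 colour, and MOE430A and MOE430B were processed apart. On MOE430A the deposited values are linear intensity in whole numbers, and log2 was taken. On MOE430B the deposited values are log2. No version of the RMA software is given in the sources used here, and precision is limited by how many arrays there are. RMA sets the arrays to a common distribution, so that only changes relative to other probe sets are seen.

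Of 22690 and 22575 probe sets, 64 controls on each array were left out, as was the MOE430A probe set that reads the transgene's promoter. Genes were taken from the array annotation, with 20379 probe sets of MOE430A and 14661 of MOE430B naming 1 gene alone. The brightest probe set stood for a gene, MOE430A before MOE430B. The 4 genes and the gene lists were chosen with earlier results of these data known. Named are all probe sets of the 4 genes, in each list the 4 or fewer genes of smallest unadjusted p, a few defining markers, and the 5 probe sets most like each gene by Pearson r among those above the median intensity, and other genes were named after their values were seen.

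Differences were fitted in R 4.3.3 with limma 3.58.1 (lmFit, then eBayes), using Benjamini-Hochberg adjustment within each array at a false discovery rate of 10%. The study called its regulated genes with the ChipInspector software, which was not run here. It used RMA and a limma test at the same rate as a check of those results. The fit was tested on simulated data. Single probe sets were compared with two-sided exact permutation tests over 462 splits of the mice (924 on MOE430B). Correlations were tested by permutation, exact below 10 mice and otherwise with 100000 draws, two-sided, and adjusted over 22 relations, 6 between the genes and 16 with markers and the 3′-5′ difference. For the array sets, arrays were clustered by complete linkage, the distance being 1 minus Pearson r, and the tree was divided into 3. Fits on the middle array set alone were chosen after seeing the data. Promoters are from RefSeq (GRCm38.p6), where all 4 genes were matched by symbol. Python 3.11.15 with numpy 2.4.6, pandas 2.3.3, scipy 1.17.1 and matplotlib 3.10.9 was used.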

Additional observations from a re-analysis of the deposited data

Results flagged for a closer look

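Each probe set was examined for a mouse far from the others of its genotype, in 18 groups of 5 or 6 mice, of which chance gives about 1 in 20. The dim second probe set of Mt1 was 5.91 in mouse tg273, against 6.09 in the nearest UBB+1 tg mouse. The dimmest probe set of Mtf1, on MOE430B, was 5.35 in mouse wt331, against 5.07 in the nearest wild-type mouse. The bright probe sets of Mt1, Mt2, Mt3 and Mtf1 had no such mouse.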

How the results depend on the processing

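No paired analysis was possible because UBB+1 tg and wild-type mice share no animal numbers in the labels. No difference of Mt1, Mt2, Mt3 or Mtf1 passed the false discovery rate under any setting run, which were 11 settings and the leaving out of each of 11 mice. Mt3 turned to 0.083 with the array set as a block. Mtf1 turned to -0.088 with array weights, to -0.028 with a covariate for the 3′-5′ difference and to -0.0098 in the middle array set alone, a setting chosen after seeing the data. Leaving out each mouse gave -0.88 to -0.23 for Mt1, -0.57 to -0.21 for Mt2, -1.13 to -0.35 for Mt3 and -0.070 to 0.23 for Mtf1. Array weights gave -1.18 for Mt1, -0.72 for Mt2 and -1.60 for Mt3. The count of probe sets on MOE430B was 1 with dim probe sets left out, 1 with the 3′-5′ covariate and 0 to 1 on leaving out each mouse (1 without mouse wt291), and on MOE430A it was 0 throughout. The cause was not tested.

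Over the 11 mice, the correlations of Mt1 with Mt2, Mt1 with Mt3 and Mt2 with Mt3 (Pearson r of 0.98, 0.97 and 0.99) kept an adjusted p below 0.05 for Pearson r, except for Mt1 with Mt3 as deviations from the array set mean (0.84) and for all of them in the middle set alone (0.96, 0.88 and 0.87), which holds fewer mice. The p-values for deviations from the array set mean can be too small, since the deviations were permuted freely across sets. By Spearman's rho none of the 3 passed as deviations from the array set mean (permutation adjusted p of 0.309, 0.309 and 0.101), in the UBB+1 tg mice alone (0.244, 0.183 and 0.183) or in the middle set (0.452, 0.0611 and 0.452). The correlations with Mtf1 passed this threshold only as residuals from the 3′-5′ difference (0.87 for Mt1, 0.89 for Mt2 and 0.92 for Mt3) and, for Mt1, without mouse wt287. The metallothionein genes were high in both the low and the high array set, so that residuals from a straight line keep the split between sets. As deviations from the array set mean, r to Mtf1 was 0.49, 0.57 and 0.69 (permutation adjusted p of 0.374, 0.310 and 0.0658). Leaving out each mouse gave 0.97 to 0.99 for Mt1 with Mt2, 0.96 to 0.98 for Mt1 with Mt3, 0.99 to 0.99 for Mt2 with Mt3, 0.59 to 0.81 for Mt1, 0.55 to 0.74 for Mt2 and 0.56 to 0.75 for Mt3 with Mtf1. Without the mice farthest from the median of the first gene, the correlations between metallothioneins were 0.98 each. None of the 16 relations to astrocyte, neuron and glucocorticoid means or to the 3′-5′ difference reached an adjusted p below 0.05, with r between -0.31 and 0.53 over all mice.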
